A study of Mus musculus with 3 samples.

Results

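The JAK-STAT pathway carries cytokine signals from the cell surface to the nucleus, and the genes described here are 9 of its components: the kinase gene *Jak2*, the transcription factor genes *Stat3*, *Stat5a*, *Stat5b* and *Stat6*, and the suppressor genes *Socs1*, *Socs2*, *Socs3* and *Cish*. Members were found by gene symbol among the probes of a whole-genome mouse oligonucleotide array, with case ignored and control probes left out. All 9 genes were present, with 16 probes of 41174 probes in all, and the 16 probes occupied 34 of 43379 spots on each array. All 16 probes passed the filters, and 41157 probes in all entered the tests.

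The arrays compared mast cell progenitors (MCps) of wild type (WT) mice with MCps of mice that lacked p85α, a regulatory subunit of class IA phosphatidylinositol 3-kinase encoded by *Pik3r1*. Low density bone marrow cells of 3 independent mice of each genotype were cultured for 7 days with IL-3 at 10 ng/mL. Cells double positive for KIT and the IgE receptor were then sorted and stimulated with SCF at 100 ng/mL for 48 hours, so that both genotypes had received both cytokines and no unstimulated cells were on the arrays. Each of 3 arrays carried 1 WT culture labelled with Cy3 and 1 *p85α−/−* culture labelled with Cy5. The dyes were never swapped, so dye and genotype cannot be told apart in any value given here. Ages and strains of the mice are not given in the sources used here. Each culture gave fewer than 10000 cells, and the cDNA was amplified by PCR before labelling.

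Cytokine receptors without kinase activity of their own bind Janus kinases (JAKs), which phosphorylate the receptor and then the STAT proteins docked on it. Phosphorylated STATs pair, enter the nucleus and bind DNA at paired half-sites. Among the genes that STAT proteins switch on are those of the SOCS family and CIS (the product of *Cish*), which bind the receptor or the kinase, limit further signaling and can bring a ubiquitin ligase to it through the SOCS box. In mast cells IL-3 signals through JAK2 and STAT5, IL-4 through STAT6, and KIT, the receptor for SCF, is a receptor tyrosine kinase that also engages STAT proteins and is a known partner of SOCS1.

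The promoters of *Cish* and *Socs3* are shown because they are the promoter windows among the members that hold the letters of a STAT half-site pair. RefSeq (assembly GRCm38.p6) gave 10 promoter windows for 8 of the 9 members, each running from 250 bases before to 50 bases after a gene start; *Socs2* was not in the table. The letters TTCNNNGAA, which read the same on both strands, were searched for in each window. The *Cish* stretch lies at chr9:107296409-107296678 on the plus strand and the *Socs3* stretch at chr11:117969367-117969616 on the minus strand, and both are written from 5′ to 3′ with the matching letters in capitals.
Cish: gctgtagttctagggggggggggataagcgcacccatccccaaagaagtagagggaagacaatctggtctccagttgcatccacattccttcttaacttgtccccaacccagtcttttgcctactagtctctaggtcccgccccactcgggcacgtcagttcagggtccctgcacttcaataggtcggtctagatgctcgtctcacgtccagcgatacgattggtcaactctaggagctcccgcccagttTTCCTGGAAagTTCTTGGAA
Socs3: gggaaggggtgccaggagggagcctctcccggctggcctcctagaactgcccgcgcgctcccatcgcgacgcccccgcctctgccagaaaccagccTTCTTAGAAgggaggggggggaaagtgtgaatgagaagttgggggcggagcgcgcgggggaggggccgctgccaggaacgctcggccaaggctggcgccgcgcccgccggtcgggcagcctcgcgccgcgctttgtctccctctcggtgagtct

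The *Cish* window held 2 matches, TTCCTGGAA starting at the annotated gene start and TTCTTGGAA 11 bases further on, whereas the *Socs3* window held 1 match, TTCTTAGAA, which began 154 bases before the start. For comparison, 8.298% of all 32851 promoter windows of the same length held at least 1 match and 0.4566% held at least 2. The same half-sites with 4 bases between them, the spacing that STAT6 prefers, were in 0 of the 10 member windows and in 6.953% of all windows. A match of letters is a description of these windows, and binding was not measured on the arrays.

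No probe of the 9 genes passed either criterion for a difference between *p85α−/−* and WT MCps. The first criterion was an adjusted p under 0.05 in limma, which fits a linear model to each probe and steadies its variance with that of all other probes, with Benjamini-Hochberg adjustment over all 41157 probes. It was met by 0 member probes and by 0% of all probes. The second criterion, taken from the study's methods, was a change of at least 1.5-fold with an unadjusted p under 0.05, and it was met by 0 member probes and by 4.44% of all probes. The lowest adjusted limma p among the member probes was 0.908, a value that several of them shared, and the lowest unadjusted p was 0.0561, for *Cish*. The exact sign-flip test over 3 arrays cannot give a p below 0.25. What follows therefore gives the measured values and their spread.

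Levels are log2 normalized intensities. A gene with several probes is summarised by its brightest probe, and the other probes of a member are given beside it. Intensities of different probes served only to choose probes and are not read as differences in transcript amount. Differences are log2 ratios of *p85α−/−* over WT on the same array, so that 1 is a doubling of intensity. The brightest probes of 6 genes (*Jak2*, *Stat6*, *Socs1*, *Socs2*, *Socs3* and *Cish*) had a mean ratio above 0, and those of 3 genes (*Stat3*, *Stat5a* and *Stat5b*) had a mean ratio below 0. All 4 suppressor genes lay above 0, against 1 of the 4 STAT genes. The median over the 9 brightest probes was 0.53, beside -0.05 over all probes tested. Over all 16 probes, 8 means lay above 0 and 8 below.

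**Figure D1:**
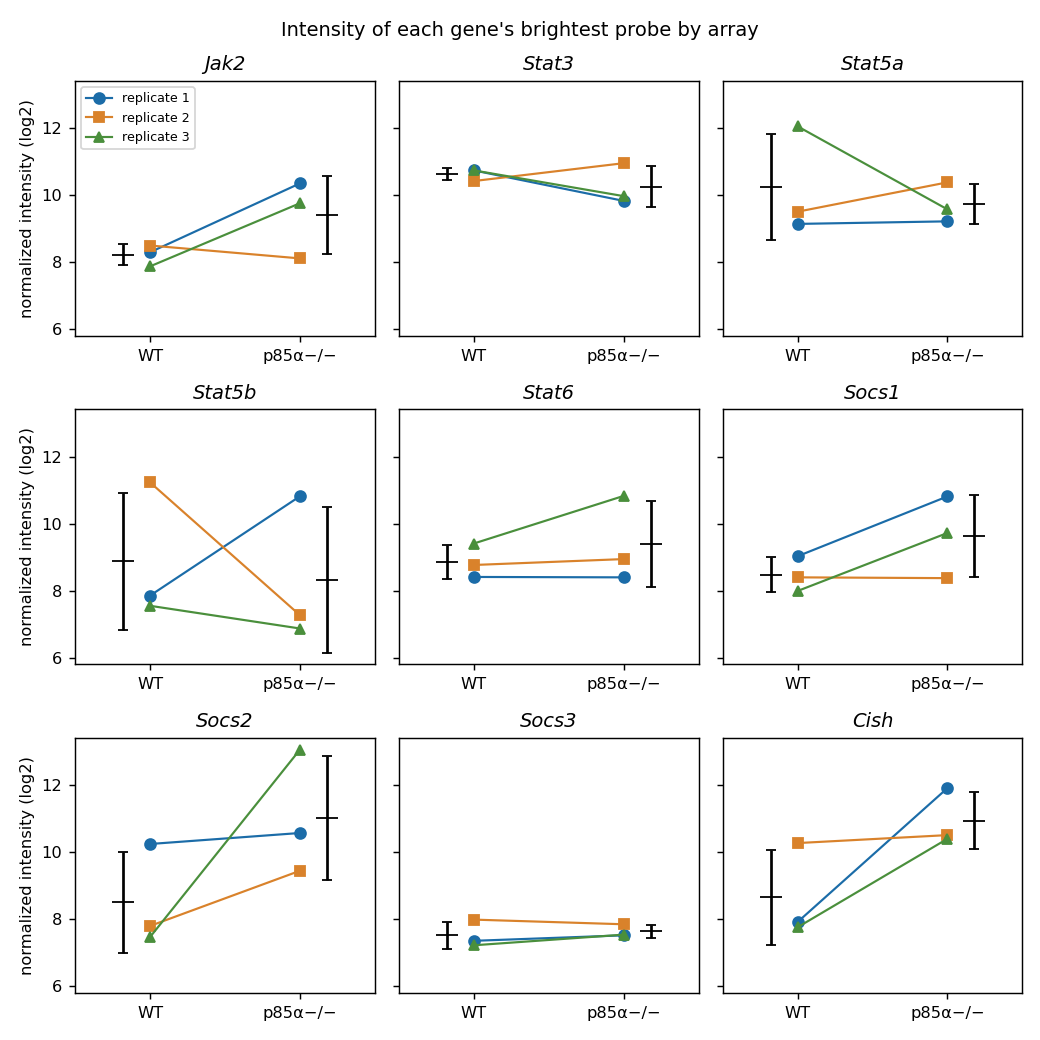
Normalized intensity (log2, vertical axis) of the brightest probe of each of the 9 genes in WT and *p85α−/−* MCps. Lines join the 2 channels of an array, symbols mark the replicate, and black bars beside the points are the mean ± SD of 3 cultures. Among these 9 probes, *Cish* is the one whose 3 *p85α−/−* values, from 10.40 to 11.91, all lie above its 3 WT values, from 7.76 to 10.27.

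*Jak2*, the kinase that pairs with the IL-3 receptor's shared beta chain, lay at 8.30, 8.50 and 7.88 in the WT cells of replicates 1, 2 and 3 for its brighter probe (A_51_P483231, listed by the array design at chr19:29011709-29011768; the build of the design's positions is not given in the sources used here). In the *p85α−/−* cells of the same replicates it lay at 10.36, 8.11 and 9.76. The *p85α−/−* cells were higher on arrays 1 and 3 and lower on array 2, and the groups overlapped. The ratios of 2.06, -0.38 and 1.89 averaged 1.19 ± 1.36 (SD, n = 3), or 2.27-fold, with a 95% interval of -0.59 to 2.96 (limma, log2). The adjusted limma p was 0.908.

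The second *Jak2* probe (A_52_P309376) went the other way at a dimmer signal. It was well above background on 2 of 3 arrays in each genotype. Its WT levels of 6.95, 7.08 and 6.96 all lay above its *p85α−/−* levels of 6.70, 6.70 and 6.94, and the ratio averaged -0.22 ± 0.18 (SD, n = 3). Such separation downward was found for 5.94% of all probes, and the separation of this probe was lost with loess normalization, without background subtraction and with the signals that the scanner software had processed. The adjusted limma p was 0.916.

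*Stat3*, the factor classically activated by IL-6 family cytokines, was represented by a probe printed 10 times on each array (A_51_P201480, chr11:100997323-100997382 in the design). Its WT levels were 10.74, 10.42 and 10.74 and its *p85α−/−* levels 9.83, 10.96 and 9.97. The WT cultures lay within 0.32 of each other, whereas *p85α−/−* replicate 2 stood above and the other two stood below all WT values. The ratios of -0.91, 0.53 and -0.77 averaged -0.38 ± 0.80 (SD, n = 3), with an adjusted limma p of 0.910. A second probe, designed to a cDNA clone (A_52_P569499), gave -0.72, 0.26 and 1.60 on the 3 arrays, averaging 0.38 ± 1.17 (SD, n = 3). The *Stat3* probes thus had the same sign on arrays 1 and 2 and opposite signs on array 3.

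The 10 spots of the *Stat3* probe and the 10 spots of a *Stat6* probe (A_51_P452382) showed how much of the spread arose within an array. Among the *Stat3* spots of an array, outlier spots left out, the ratio had an SD between 0.052 and 0.092, while the SD between the 3 arrays was 0.80. For the *Stat6* spots, the within-array SD lay between 0.043 and 0.141 and the between-array SD was 0.78. The spread between arrays was thus 8.67 and 5.54 times the highest within-array SD, for *Stat3* and *Stat6* respectively. Repeat spots share the labelled cDNA, so they measure printing, hybridization and scanning, and the spread between arrays holds the cultures, the amplification and the labelling together.

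**Figure D2:**
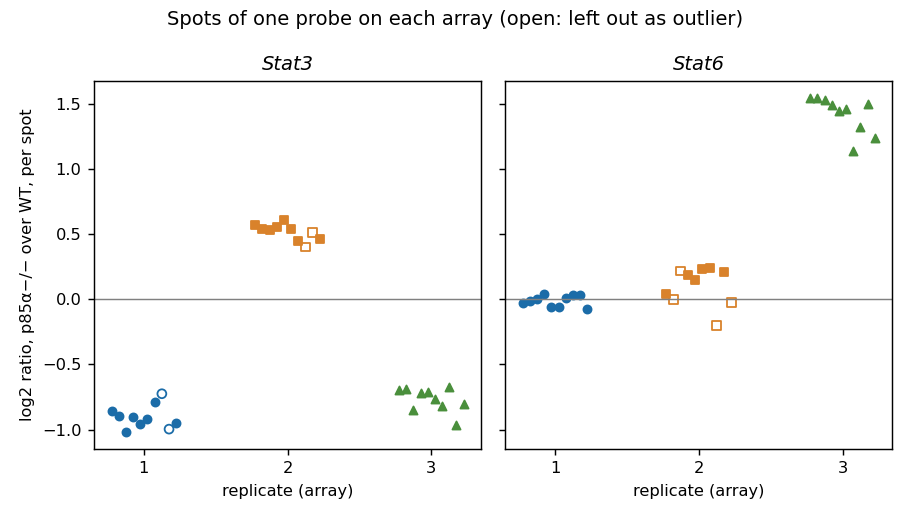
Log2 ratio of *p85α−/−* over WT (vertical axis) for each of the 10 spots of the *Stat3* and *Stat6* probes on the 3 arrays. Open symbols are spots left out as outliers. The *Stat3* spots used run from -1.02 to -0.79 on array 1, from 0.45 to 0.61 on array 2 and from -0.96 to -0.67 on array 3, so that the arrays differ in sign while the spots of an array lie together.

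*Stat5a* and *Stat5b* encode closely related factors that carry IL-3 signals in mast cells, and their probes varied widely from array to array. For *Stat5a* (A_51_P152765, chr11:100993869-100993928 in the design), the WT levels were 9.14, 9.51 and 12.06 and the *p85α−/−* levels 9.22, 10.39 and 9.58. WT replicate 3 stood 2.91 above WT replicate 1, which set the ratio of that array at -2.48 beside 0.08 and 0.88 on arrays 1 and 2. The mean was -0.51 ± 1.75 (SD, n = 3), the 95% interval -2.73 to 1.71 and the adjusted limma p 0.934. Without replicate 3 the mean turned to 0.48. The design lists the *Stat3* probe of the cDNA clone 258 bases from the *Stat5a* probe. These neighbouring probes had ratios of opposite sign on arrays 1 and 3.

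*Stat5b* had 3 probes. The brightest (A_52_P53698, chr11:100889824-100889883 in the design) lay at 7.85, 11.23 and 7.55 in WT and at 10.82, 7.27 and 6.87 in *p85α−/−* cells. Its ratios of 2.97, -3.97 and -0.68 covered the widest range of any member probe, 6.93, and averaged -0.56 ± 3.47 (SD, n = 3). The probe A_51_P281938 gave ratios of -1.28, 1.35 and -0.52. The probe A_52_P663027, designed to a cDNA clone and well above background on 2 of 3 arrays in WT, gave 0.56 and -0.62 on arrays 2 and 3, and on array 1 it stood at 10.51 in WT and 7.50 in *p85α−/−* cells. Both had signs opposite to the brightest probe on arrays 1 and 2. The means of these probes were -0.15 ± 1.35 and -1.02 ± 1.82 (SD, n = 3), and the 3 adjusted limma p values lay between 0.908 and 0.981. Without replicate 2 the mean of the brightest probe turned to 1.14.

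*Stat6*, the factor activated by IL-4 and IL-13, also had 3 probes. The brightest (A_51_P452382, chr10:127161669-127161727 in the design) lay at 8.41, 8.77 and 9.41 in WT and at 8.40, 8.94 and 10.83 in *p85α−/−* cells, and the difference lay on array 3 for the most part. Its ratio averaged 0.53 ± 0.78 (SD, n = 3), with an adjusted limma p of 0.908. The probe A_52_P132761 was higher in *p85α−/−* cells on all 3 arrays, by 0.24, 1.38 and 0.25, a pattern seen in 12.5% of all probes. The third, A_52_P114494, designed to a cDNA clone, gave -0.53, 0.55 and -1.49, its WT replicate 3 standing at 11.86 beside 8.16 and 7.89.

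**Figure D3:**
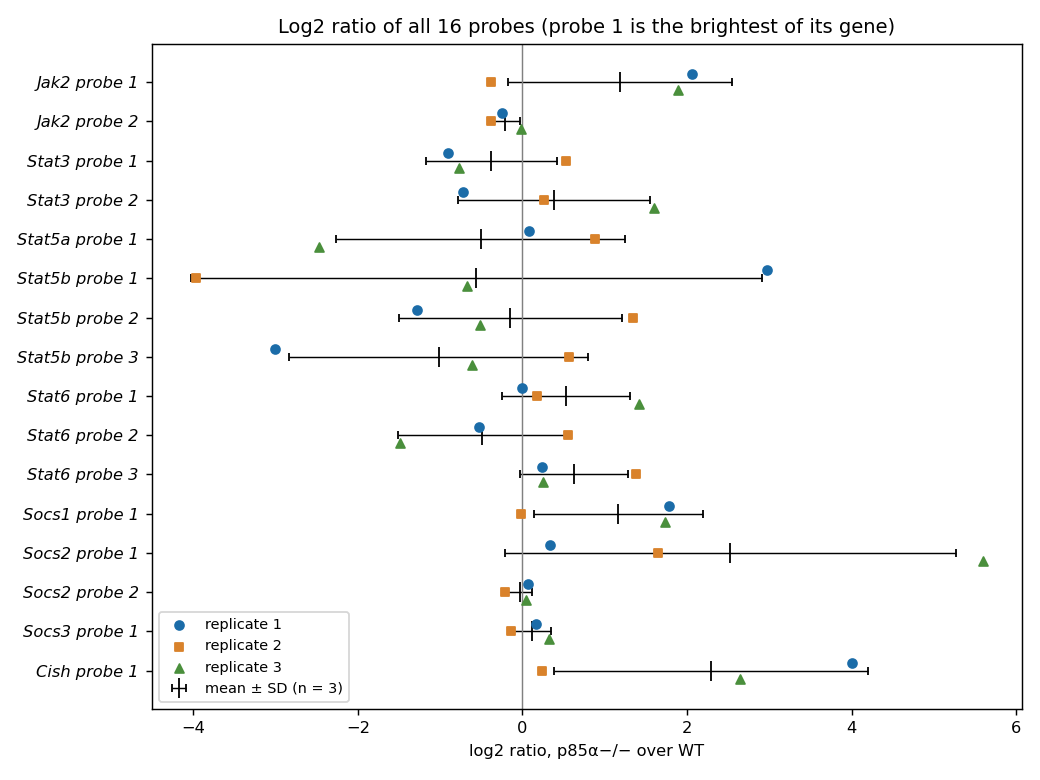
Log2 ratio of *p85α−/−* over WT (horizontal axis) for each of the 16 probes, ordered by gene with the brightest probe first. Coloured symbols are the 3 arrays and black bars the mean ± SD. In 13 of the 16 probes the SD exceeds the distance of the mean from 0, as it does in 79.7% of all probes, and the *Stat5b* probes point in opposite directions on arrays 1 and 2.

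Among the suppressors, *Cish* was the gene whose *p85α−/−* values all lay above its WT values. CIS binds phosphorylated cytokine receptors and *Cish* is a classical STAT5 target gene. Its probe (A_51_P470715, chr9:107031313-107031372 in the design) lay at 7.91, 10.27 and 7.76 in WT and at 11.91, 10.51 and 10.40 in *p85α−/−* cells. WT replicate 2 came close to the *p85α−/−* values, and the groups did not overlap. The same separation upward was found for 4.54% of all probes. It was kept for *Cish* with loess normalization, without background subtraction and with the scanner software's processed signals. The ratios of 4.00, 0.24 and 2.64 averaged 2.29 ± 1.91 (SD, n = 3), or 4.90-fold, with a 95% interval of -0.10 to 4.69. The unadjusted limma p was 0.0561 and the adjusted p 0.908.

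*Socs1*, whose product inhibits JAK kinases directly, lay at 9.03, 8.40 and 7.99 in WT and at 10.82, 8.38 and 9.72 in *p85α−/−* cells (A_51_P279606, chr16:10461534-10461593 in the design). On array 2 the ratio was -0.02, whereas on arrays 1 and 3 the *p85α−/−* cells were higher by 1.79 and 1.73. The mean was 1.17 ± 1.03 (SD, n = 3), or 2.24-fold, with a 95% interval of -0.24 to 2.57. The unadjusted limma p was 0.0815 and the adjusted p 0.908.

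*Socs2*, best known as the brake on growth hormone signaling through STAT5, had the largest mean ratio of the 9 brightest probes and a wide spread. The brighter probe (A_51_P107362, chr10:94973417-94973476 in the design) lay at 10.24, 7.80 and 7.47 in WT and at 10.57, 9.45 and 13.06 in *p85α−/−* cells. All 3 ratios were above 0, at 0.33, 1.65 and 5.60, but WT replicate 1 lay above *p85α−/−* replicate 2 and the groups overlapped. The mean was 2.52 ± 2.74 (SD, n = 3), or 5.75-fold, with a 95% interval of -0.85 to 5.90 and an adjusted limma p of 0.908. Without replicate 3 the mean was 0.99. A second probe, designed to a cDNA clone (A_52_P84037), was well above background on 1 of 3 arrays in each genotype and gave -0.03 ± 0.15 (SD, n = 3).

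*Socs3*, the suppressor that binds the IL-6 family receptor chain gp130, had a probe with raw WT signals of 56.3 to 82.3, well above background on all 3 arrays, and a narrow range of ratios. The probe (A_51_P474459, chr11:118075211-118075270 in the design) lay at 7.35, 7.99 and 7.22 in WT and at 7.52, 7.85 and 7.54 in *p85α−/−* cells. The mean ratio was 0.11 ± 0.23 (SD, n = 3) with a 95% interval of -0.59 to 0.82. Normalized intensities up to 1.77-fold higher or 1.51-fold lower in *p85α−/−* cells were thus within the error of these arrays. At so dim a signal this interval does not bound a difference in transcript amount. The mean was 0.25 with the software's log ratio and 0.30 with median centring. The adjusted limma p was 0.957.

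The ratio was lowest on array 2 for the brightest probes of 5 genes (*Jak2*, *Stat5b*, *Socs1*, *Socs3* and *Cish*), as it was for 36.2% of all probes. Leaving out 1 array moved the mean of *Stat5b* from -2.32 without replicate 1 to 1.14 without replicate 2. Without replicate 2 the mean was 1.97 for *Jak2*, 1.76 for *Socs1* and 3.32 for *Cish*, each past the criterion of 1.5-fold with an unadjusted p under 0.05 and each with an adjusted limma p of 0.592. Leaving out the array with the lowest ratio raises a mean by construction, so these calls are no separate support. Without replicate 1 the means were 0.75, 0.85 and 1.44 and without replicate 3 they were 0.84, 0.88 and 2.12, in the same order of genes, and none met the criterion (0 of 3 genes). Without replicate 2 the number of all probes past that criterion was 3165, beside 1829 with all arrays.

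Markers of other cell types moved between arrays as well. The mean level over 8 neutrophil granule genes went from 9.28 in WT to 11.06 in *p85α−/−* cells on array 1, from 8.64 to 8.08 on array 2 and from 9.40 to 11.48 on array 3. The range of this mean was 8.64 to 9.40 over the WT cultures and 8.08 to 11.48 over the *p85α−/−* cultures. Each of the 8 genes was detected in both genotypes, 5 had a mean ratio above 0, and *S100a8* and *S100a9* met the criterion of 1.5-fold with an unadjusted p under 0.05, whereas *Prtn3* and *Ltf* had their lowest ratios on array 3. The differences between the mean levels on arrays 1, 2 and 3 were 0.60, -0.80 and -0.40 for 6 macrophage markers, 1.07, -0.81 and -0.08 for 6 basophil and eosinophil markers, and -0.23, -0.36 and 0.61 for 5 erythroid markers. Array 2 was thus lowest in these 3 lists and in the neutrophil list. The basophil and eosinophil marker *Prg3* met the criterion downward, at -1.07 ± 0.27 (SD, n = 3), and the macrophage marker *Emr1* was lower without overlap, at -1.39 ± 1.12. Each of these 2 lists had 3 means above 0 and 3 below. *Mcpt8*, in the same list as *Prg3*, was higher on all 3 arrays, at 0.89 ± 0.53, and the macrophage marker *Mrc1* had a mean of 0.91. The part of other cell types in the members' values was not tested. In bulk RNA a different share of a cell type and a different amount of RNA per cell cannot be told apart.

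The markers of mast cells themselves lay above 0 in 11 of 12 measured genes, with a median ratio of 0.87, and the differences between their mean levels on arrays 1, 2 and 3 were 0.57, 1.26 and 1.07. Of these, *Fcer1g* and *Cma1* met the criterion of 1.5-fold with an unadjusted p under 0.05. *Kit*, which the sort selected for, gave ratios of 1.45, 2.19 and 2.54. The 4 probes of *Pik3r1* had mean ratios of 0.59, -0.58, 0.32 and -0.04, so that they did not separate the genotypes in a single direction. The probe at -0.58 was lower in *p85α−/−* cells without overlap, with ratios of -1.04, -0.31 and -0.38. Where the deletion lies relative to these probes is not given in the sources used here. The study reports the loss of p85α protein in its cultured mast cells by western blotting, with data not shown. Across all probes, the ratios of the 3 arrays correlated with r of 0.01, 0.17 and -0.03, while the levels within a genotype correlated with r of 0.75 to 0.78. Median raw signals on arrays 1, 2 and 3 were 76.1, 71.5 and 141.2 in the WT channel and 210.9, 517.3 and 206.6 in the *p85α−/−* channel. Of the spots, 72.1%, 69.4% and 85.3% in WT and 77.6%, 93.8% and 77.3% in *p85α−/−* were well above background. Array 2 thus had the most unequal channels, and the part of this in its ratios was not tested. No spot was saturated (0 on each array).

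The rest of the pathway was read from lists of 44 other genes, each by its brightest probe. Of these, 4 met the criterion of 1.5-fold with an unadjusted p under 0.05, all higher in *p85α−/−* cells, and 0 had an adjusted p under 0.05. Of all probes 4.44% met it, and 62.6% of those were higher in *p85α−/−* cells. The median over the 44 genes was 0.27, with 27 means above 0 and 17 below, and 12 genes were higher and 2 lower on all 3 arrays, beside 12.5% and 13.3% of all probes. Among the other kinases, *Jak1*, which serves many cytokine receptors, gave 0.85 ± 0.49 (SD, n = 3) for its brighter probe and a mean of -0.51 for the other, *Tyk2* gave 0.65 ± 0.91 and *Jak3* gave 0.12 ± 0.15. *Stat2*, whose product carries interferon signals, gave 0.94 ± 1.14 (SD, n = 3). Of these 4 genes, 0 met the criterion.

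Of the other SOCS genes, *Socs5* met the criterion, with ratios of 1.17, 0.48 and 1.05 and no overlap between the genotypes, while *Socs4*, *Socs6* and *Socs7* had means of -0.40, -0.73 and -0.52. The 4 probes of *Socs6* ran from -0.83 to 0.90. The median of the 4 other SOCS genes was -0.46, beside 1.73 for *Socs1*, *Socs2*, *Socs3* and *Cish*, and a difference between these lists was not tested. The partners that assemble a ubiquitin ligase on the SOCS box lay between -0.42 for *Rnf7* and 0.47 for *Tceb2* (the elongin B gene), with a median of 0.27, and the second probes of these genes had means of 0.12 and 0.01. Among the PIAS proteins and phosphatases, which restrain STATs and JAKs by other means, *Ptpn2* stood highest at 2.17 ± 1.99 (SD, n = 3) and *Pias3*, whose product was named for its inhibition of STAT3, lowest at -1.34 ± 1.58. The second probes had means of 0.04 for *Ptpn2* and 0.27 for *Pias3*, so that both extremes rest on the brighter probe. Of these 8 genes, 0 met the criterion.

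Receptors and targets held the other genes that met it. *Il4ra*, the ligand-binding chain for IL-4, gave ratios of 4.36, 4.20 and 0.93, and *Kit* is given above. *Csf2rb2*, the mouse IL-3 receptor beta chain, was higher on all 3 arrays without overlap, at 2.64 ± 2.33 (SD, n = 3), but did not meet the criterion, and its near-identical neighbour *Csf2rb1* gave 3.87, 5.35 and -1.82 for its brightest probe, with means of its 3 probes from -0.06 to 2.47. How far these probes tell the paralogs apart is not known here. The lowest receptor value was -0.79 ± 1.18 (SD, n = 3) for *Il6st*, which encodes gp130. Of 10 genes known as STAT5 targets, *Ccnd2*, which encodes cyclin D2, met the criterion with ratios of 2.13, 4.65 and 2.07 for its brightest probe, while the means of its 3 probes ran from 0.53 to 2.95. Beside *Ccnd2*, *Pim1* at 1.16 ± 0.85 (0.24 for its second probe) and *Osm* at 0.84 ± 0.59 (SD, n = 3; 1.35 for its second probe) were higher on all 3 arrays, and *Ccnd1* stood lowest at -0.87 ± 1.14. The median of the 10 targets was 0.70.

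**Figure D4:**
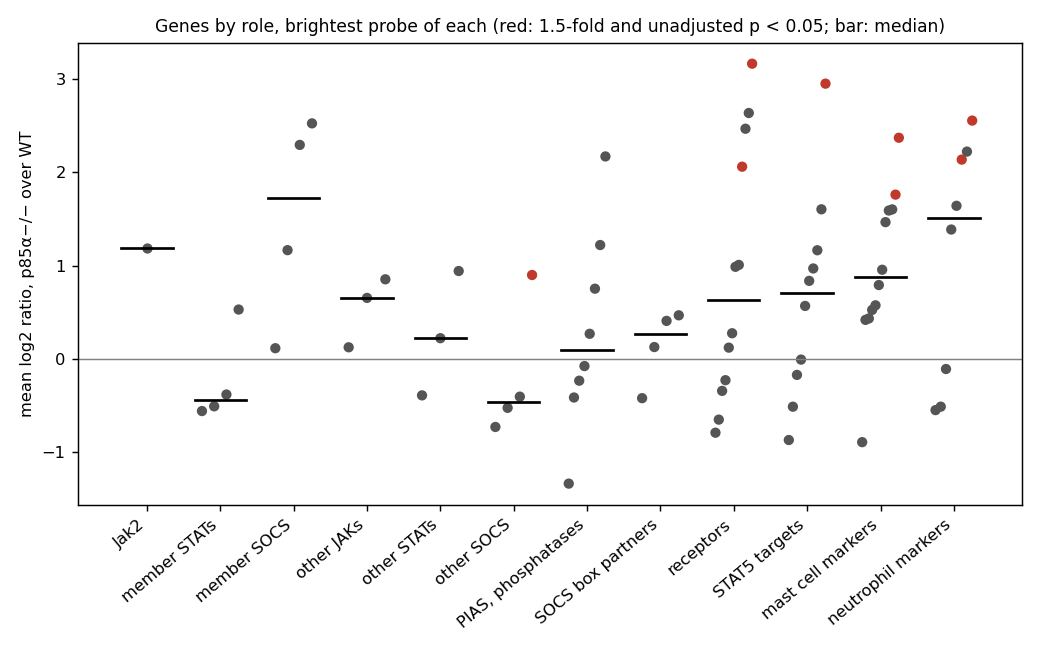
Mean log2 ratio of *p85α−/−* over WT (vertical axis) for the brightest probe of each gene, by role. Black lines are medians of a list and red points met the criterion of 1.5-fold with an unadjusted p under 0.05. The 4 suppressors *Socs1*, *Socs2*, *Socs3* and *Cish* have a median of 1.73, the 4 other SOCS genes a median of -0.46, and the 4 STAT genes a median of -0.45.

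The scale chosen for the ratios moved some of these values. Centring each array's ratios on their median, with no quantile normalization, moved the median of all probes by 0.14, from -0.05 to 0.09, and put 91.4% of the probes past the criterion of 1.5-fold with an unadjusted p under 0.05 on the side higher in *p85α−/−* cells, beside 62.6% before. Relative to the median of all probes, *Stat3* went from -0.33 to 0.33 and *Stat5a* from -0.46 to 0.17, so that the direction of these 2 genes depends on the scale. *Cish* went from 2.34 to 2.92, *Socs2* from 2.57 to 3.49, *Socs1* from 1.21 to 1.93 and *Jak2* from 1.23 to 1.83. With centring these 4 genes met the criterion, as did 6.56% of all probes, and the lowest adjusted p among them was 0.646.

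*Socs1*, *Socs2*, *Socs3*, *Cish*, *Jak2* and *Stat6* stayed above 0 under each of the settings that moved their ratios, which were 8 to 10 of 14 settings by gene. For *Cish* and *Socs2* the ratio was above 0 on all 3 arrays, so leaving out a replicate could not change the sign of their means. The software's log ratio and its processed signals gave nearly the same values, so these settings are not independent. *Cish* ran from 1.44 to 3.32 and met the criterion of 1.5-fold with an unadjusted p under 0.05 in 6 of all 14 settings. Of all probes, 6.56% met it with median centring, 5.16% with processed signals and 7.69% without replicate 2. It was met by 5.25% with only probes well above background and by 4.4% with the 6 channels as separate samples. In these last settings, and with probes averaged by gene, the *Cish* ratio was unchanged at 2.29. The call without replicate 2 is no separate support, as said above. The lowest adjusted limma p of any member over all settings was 0.592.

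**Figure D5:**
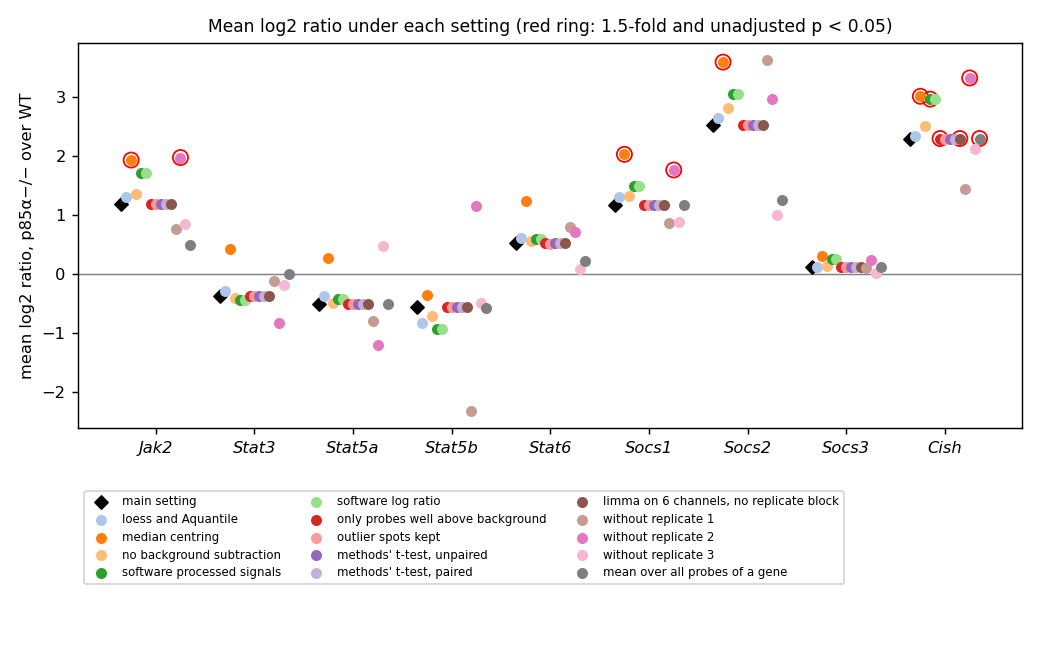
Mean log2 ratio of *p85α−/−* over WT (vertical axis) for each of the 9 genes under the reported setting (black diamond) and 14 others (coloured points). Red rings mark values of at least 1.5-fold with an unadjusted p under 0.05, which 1.99% to 7.69% of all probes met by setting. *Cish* is ringed in 6 settings, *Jak2* and *Socs1* in 2 each and *Socs2* in 1, while *Stat3*, *Stat5a* and *Stat5b* have points on both sides of 0.

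Similarity of pattern was measured as Pearson's r over the 6 channel values for 1 member, *Stat3*. It was chosen for the intensity of its probe, which does not rank the members by transcript amount. Among 25562 probes the most alike were those of *Drd2* (r = 0.995), *2610307O08Rik* and *Dpp7*. With so few values 8.16% of the probes had an r above 0.8, and the 6 values come from 3 arrays, so this is a description.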

How the data were processed

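KIT and IgE receptor double positive MCps were profiled on 3 Agilent two-colour mouse arrays, each with a WT culture in Cy3 and a *p85α−/−* culture in Cy5. The authors deposited scanner output of Agilent Feature Extraction (version 9.5.1.1 per the file headers) with mean and background intensity per spot, which are linear intensities, together with a log10 ratio of Cy5 over Cy3. A deposited value table of log10 ratios was compared with the scanner's own log ratio. It held the same values for 40929 of 40929 single-spot probes for replicate 1 and for 190 and 226 for replicates 2 and 3 (tolerance 1.5e-05), and it was not used further.

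Background was corrected by normexp with an offset of 50, and quantile normalization brought all 6 channels to the same distribution on the log2 scale (limma 3.58.1, R 4.3.3). Controls and flagged outliers were removed at that stage, and repeat spots were averaged per probe. Ratios (log2, Cy5 over Cy3) were fitted with lmFit and eBayes for departure from 0 in all 41157 probes measured on 3 arrays, with Benjamini-Hochberg adjustment, and by an exact two-sided sign-flip test over the 3 arrays. Because each array holds a WT and a *p85α−/−* culture, this test is paired by array. Pairing rests on the shared array. Over probes, WT and *p85α−/−* levels of an array correlated with r of 0.74 to 0.78. Levels of different arrays within a genotype correlated with r of 0.75 to 0.78, so the r within an array does not show a pairing. The study's methods used a t-test, which was run as an alternative. Probe positions are those of the array design, whose genome build is not given in the sources used here. Gene symbols are those of the design, and 12 of the 16 member probes carry a RefSeq transcript that RefSeq gives the same symbol; the other 4 were designed to cDNA clones. Promoter sequences came from RefSeq (GRCm38.p6).

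All members and their probes are named. From the other lists, genes are named where they met the criterion of 1.5-fold with an unadjusted p under 0.05 or were the highest or lowest of their list, and a few others were chosen after their values were seen; 1 result that this rule would name is not reported here. The members and the lists were chosen with earlier results of these data known, so list counts and medians are descriptions and no list was tested. With 3 cultures a genotype, the number of arrays limits the precision. The limma fit, and no other step, was tested on simulated ratios, with a pass required only at a spread far below that of these data.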

Additional observations from a re-analysis of the deposited data

How the results depend on the processing

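Of 14 other settings, 4 changed only the test or the set of probes and left the members' ratios as they were. With a replicate left out, the sign of *Cish* and *Socs2* could not change, since their ratios were above 0 on each array. Of the 79 member values that the other settings moved, 75 kept their sign. The exceptions were *Stat3* (0.42) and *Stat5a* (0.26) with median centring, *Stat5a* without replicate 3 (0.48) and *Stat5b* without replicate 2 (1.14). With a replicate left out, *Stat5a* ranged from -1.20 to 0.48 and *Stat5b* from -2.32 to 1.14. The count of member genes with at least 1.5-fold and an unadjusted p under 0.05 was 0 as reported. It was 4 with median centring (*Jak2*, *Socs1*, *Socs2* and *Cish*) and 1, *Cish*, with processed signals, with only probes well above background, with limma on the 6 channels as separate samples and with each gene taken as the average of its probes; it ranged from 0 to 3 when a replicate was left out. All probes past the same criterion numbered 2698 with median centring, 2123 with processed signals and 1671 of 31819 with only probes well above background. Among all probes the count of 1829 became 1125 with the methods' t-test unpaired and 819 with it paired, 1809 without the pairing by array (no replicate block), and 1557 to 3165 with a replicate left out, 3165 being the value without replicate 2. The cause of these shifts was not tested. The count with an adjusted p under 0.05 was 0 in each of the 13 other settings run over all probes, by limma and by the t-test, with 1501 to 3165 probes at an unadjusted p under 0.05. The deposited value table was not run as an input, since its values for replicates 2 and 3 were not those of the scanner on the same probes. Dim signal limits the second probes of *Jak2* and *Socs2*, which were well above background on some arrays only.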
